A study of Mus musculus with 11 samples.

Results

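Oligodendrocyte precursor cells (OPCs) were taken from single-nucleus RNA libraries of the cortex of 11 mice. A nucleus was counted as an OPC when it had 300 to 8000 genes, at most 5% of its UMIs (molecular tags, each standing for 1 captured RNA molecule) in mitochondrial genes, at most 1 UMI of Slc17a7, at most 1 UMI of Mag and Mog together, and a UMI in at least 3 of 7 genes known to mark OPCs. These genes were Pdgfra, Vcan, Shc4, Cacng4, Emid1, Megf11 and Matn4. The rule found 3824 OPC nuclei among 112539 nuclei within the same limits on genes and mitochondrial UMIs. Since these 7 genes chose the nuclei, their levels in OPCs are a description and not a finding.

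OPCs are the dividing glia of the adult cortex. PDGF receptor alpha, the product of Pdgfra, receives the mitogen that keeps them cycling, and the transcription factors Olig2 and Sox10 hold their lineage. They carry glutamate and GABA receptors and receive synapses from neurons, and when an OPC commits it switches on Gpr17, Bmp4, Enpp6 and Bcas1, leaves the cell cycle, and goes on to make myelin proteins and membrane lipid.

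The study asked how NF-κB in microglia shapes the brain's answer to tau, and sequenced 1 library per mouse from frozen cortex, with nuclei sorted by DAPI. All mice were labelled female, whereas the study's methods name males for RNA sequencing, and this conflict was not resolved here. All had been given tamoxifen as young adults. Mice without the tau transgene (non-transgenic) kept Ikbkb, which encodes the NF-κB kinase IKKβ (Ikbkb+/+, n = 4, aged 9.8 to 10.85 months). P301S mice carried in addition the PS19 transgene, human tau with the P301S mutation driven by the mouse prion promoter (Ikbkb+/+;P301S+, n = 3, aged 9.15 to 10.75 months). Knockout P301S mice had lost Ikbkb in cells that use the Cx3cr1-CreERT2 driver, which in brain are chiefly microglia (Ikbkb-/-;P301S+, n = 2, aged 8.39 and 9.15 months). Active IKKβ P301S mice made constitutively active IKKβ from the Rosa26 locus in the same cells (IkbkbCA;P301S+, n = 2, aged 10.85 and 9.8 months). Mice with intact Ikbkb came from both breeding lines and carried no Cre. Of the non-transgenic mice, 2 came from the floxed Ikbkb line and 2 from the active IKKβ line, of the P301S mice 2 and 1, all knockout mice came from the floxed line, and all active IKKβ mice from the active line. OPCs were therefore not the cells in which Ikbkb was altered. Line and age cannot be told apart from part of each genotype difference. By the paper's genotypes, knockout and active IKKβ mice were heterozygous for Cx3cr1-CreERT2, and their P301S controls lacked it. In both comparisons Cre thus cannot be told apart from the change in IKKβ. The knockout and active IKKβ comparisons also shared the same 3 P301S mice.

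The rule gave 356, 379, 256 and 273 OPC nuclei in the non-transgenic mice, 375, 441 and 382 in the P301S mice, 413 and 245 in the knockout mice and 330 and 374 in the active IKKβ mice. Their summed counts ranged from 1463801 to 2669313 UMIs per mouse, out of 72007219 to 93205362 UMIs per library. Among the OPC nuclei only 3 barcode sequences occurred in more than 1 library, in 6 nuclei in all.

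The label was checked by the number of markers a nucleus carried. Of the 3824 nuclei, 1094 had all 7 markers, 1121 had 6, 657 had 5, 280 had 4 and 672 had exactly 3. Nuclei with 4 to 7 markers resembled each other: their median depth was 3979.5, 4195, 4618 and 5116.5 UMIs in that order, and 14.2% to 23.2% of them also had UMIs in 3 or more markers of another cell type. Nuclei with exactly 3 markers stood apart. Their median depth was 10825.5 UMIs, and 77.2% had 3 or more markers of another type. Excitatory neuron markers were the most frequent, with 3 or more in 57.4% of the nuclei, followed by inhibitory neuron markers in 33.5%. The markers that brought these nuclei in were mainly Cacng4 (82.3%), Vcan (68.8%) and Megf11 (64.4%). They were 17.6% of the nuclei and 31.3% of the UMIs. Just outside the rule, 4939 nuclei with exactly 2 markers had a median of 9973 UMIs and markers of another type in 85.2%, so the nuclei on both sides of the limit were close in these values.

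**Figure D1:**
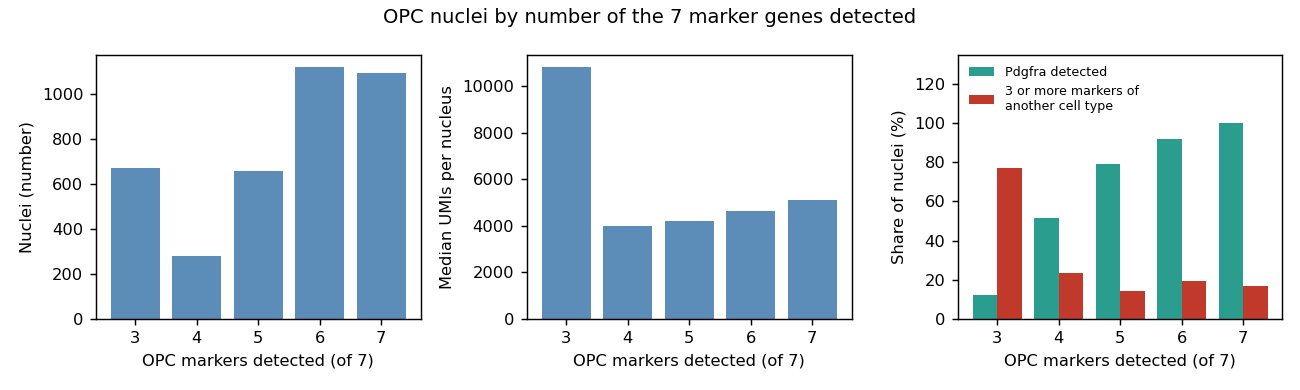
OPC nuclei by the number of rule markers detected (3 to 7, x axis), with the number of nuclei on the left, the median UMIs per nucleus in the middle and, on the right, the percent with Pdgfra, itself a rule gene and so bound to rise along the axis, and the percent with 3 or more markers of another cell type. The 672 nuclei with 3 markers sit apart at 10825.5 UMIs and 77.2% with another type's markers.

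A stricter set was therefore used beside the rule, chosen after these values were seen: 4 or more rule markers and fewer than 3 markers of any other type counted. The types counted were astrocytes, microglia, excitatory and inhibitory neurons, endothelial cells, fibroblasts and mural cells. Oligodendrocyte markers were not counted, so only the rule's limit on Mag and Mog bore on oligodendrocyte RNA. The 10 oligodendrocyte markers summed to 177 to 297 CPM in the stricter set and 161 to 253 CPM by the rule. It kept 2595 nuclei (67.9%) and 48.8% of the UMIs, at a median of 4470 UMIs. Of the 2595, 1.66% had a doublet score among the highest of their library, against 9.15% of all 3824. Nuclei with markers of another type had been left out, so this drop is no separate check of the set. The nuclei with 3 markers were not spread evenly over the mice. They made up 28.9% of OPC nuclei in non-transgenic replicate 4 and 31.0% in knockout replicate 2, and 11.3% to 19.4% in the other 9 mice. The summed level of 8 inhibitory neuron markers followed, at 341 and 418 CPM (counts scaled to a common total per mouse) in those 2 mice against 191 to 294 CPM in the others, and the 15 further OPC genes were lowest there, at 14248 and 14897 CPM against 17758 to 21907 CPM. In the stricter set the same 15 genes spanned 27121 to 30207 CPM and the inhibitory markers 98.0 to 141 CPM, over all 11 mice. Markers of other cells were low in it by the way it was chosen, with 8 microglial markers at 27.9 to 45.5 CPM, 8 endothelial markers at 2.19 to 11.7 CPM and 8 fibroblast markers, whose cells also use Pdgfra, at 0 to 13.2 CPM.

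Genes that mark OPCs but had no part in the rule were high in the stricter set. Levels here are CPM of the summed nuclei, as mean ± SD over 11 mice, and since cells were picked by genes that move with these, no test was made. Cspg4, which encodes the NG2 proteoglycan, was at 424 ± 88.5 CPM in OPCs and 5.14 CPM in oligodendrocytes, 1.87 CPM in astrocytes and 1.37 CPM in excitatory neurons. C1ql1, a secreted synaptic protein, was at 80.7 ± 13.0 CPM in OPCs and at most 1.05 CPM in the other types. Lhfpl3, a membrane protein, was at 7311 ± 601 CPM, and at most 270 CPM elsewhere. Here and below, highest means among OPCs, oligodendrocytes, astrocytes and excitatory neurons only. Microglia, inhibitory neurons and other types were not compared. Of the 15 OPC genes outside the rule, 12 were highest in OPCs in every mouse. No share over all genes was set beside this count or the counts by cell type below. The lists were also chosen with earlier results known, so such a count does not mark a list as unusual. Pdgfra itself was at 642 ± 49.8 CPM in OPCs, a level fixed in part by the choice of nuclei, since astrocytes and oligodendrocytes were also limited to at most 1 rule marker.

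Transcription factors of the lineage differed in how far they were shared with oligodendrocytes. Olig1 (57.0 ± 10.2 CPM in OPCs, 43.3 ± 9.91 CPM in oligodendrocytes) and Sox10 (240 ± 40.2 and 177 ± 34.9 CPM) were present in both lineage stages, while Olig2 stood at 57.8 ± 9.09 CPM in OPCs and 16.4 CPM in oligodendrocytes. Sox6, which holds OPCs in the precursor state, was at 2064 ± 197 CPM in OPCs, 894 CPM in astrocytes and 77.2 CPM in oligodendrocytes. Myrf, the factor that starts the myelin programme, was at 14.4 ± 4.06 CPM in OPCs and 136 CPM in oligodendrocytes, and St18 at 49.8 ± 14.7 and 3089 CPM. Of 22 progenitor transcription factors at 10 CPM or more in some type, 10 were highest in OPCs in all 11 mice, and 16 were higher and 2 lower than in oligodendrocytes. Zfp536 was at 233 CPM in OPCs and 1483 CPM in oligodendrocytes.

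Genes of commitment went both ways: of 21 onset genes at 10 CPM or more in some type, 9 were higher and 6 lower in OPCs than in oligodendrocytes in all mice. Gpr17, a receptor found in committed precursors, was at 69.9 ± 7.69 CPM in OPCs and 1.03 CPM in oligodendrocytes, and Neu4, a sialidase, at 145 ± 24.3 and 0.662 CPM. Enpp6, a phosphodiesterase and likewise a gene of the committed share, was at 7.22 ± 4.71 CPM in OPCs and 161 CPM in oligodendrocytes. Bcas1 did not separate the stages, with 562 ± 79.7 CPM in OPCs and 587 ± 51.2 CPM in oligodendrocytes. Mbp, which encodes myelin basic protein, was low, at 65.3 ± 10.9 CPM in OPCs against 3049 CPM in oligodendrocytes. Enzymes of membrane lipid were low as well. Ugt8a, which makes the myelin lipid galactosylceramide, was at 113 CPM in OPCs and 593 CPM in oligodendrocytes, and 15 of 26 genes of cholesterol and lipid synthesis were lower in OPCs than in oligodendrocytes in every mouse, with 3 higher.

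Genes through which OPCs meet neurons and matrix were counted in the same way, again without a share over all genes. Of 31 matrix and adhesion genes, 17 were highest in OPCs in all mice. Tnr, the tenascin of perineuronal matrix, was at 6160 ± 318 CPM in OPCs and 906 CPM in excitatory neurons. Dscam, an adhesion protein of neurites, was at 5308 ± 258 against 951 CPM, and Nxph1, a ligand of neurexins, at 3247 ± 219 against 70.8 CPM. Glutamate receptors and ion channels did not follow this as a group, since 4 of 32 receptor genes and 4 of 28 channel genes were highest in OPCs and most were lower than in excitatory neurons. The exceptions included Grin3a, an NMDA receptor subunit, at 749 ± 44.6 CPM in OPCs and 49.3 CPM in excitatory neurons, and Kcnh8, a potassium channel, at 405 ± 30.6 and 4.06 CPM.

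Lists of inflammatory signalling were counted in the same way, again without microglia among the types compared, and differences between lists were not tested. None (0) of 18 genes of the NF-κB list was highest in OPCs in all mice, beside 3 of 13 interferon and MHC genes, 4 of 23 receptors for microglial signals and 2 of 13 genes of disease-associated glia. Of the interferon and MHC genes 7 were higher and 1 lower in OPCs than in oligodendrocytes in all mice. Ikbkb was at 55.7 ± 5.03 CPM in OPCs against 68.6 CPM in oligodendrocytes, 63.5 CPM in astrocytes and 46.2 CPM in excitatory neurons. Among receptors for signals that microglia send, P2rx7, an ATP-gated channel, was at 120 ± 11.3 CPM in OPCs and 61.3 CPM in oligodendrocytes. Of the genes of disease-associated glia, 9 were lower and 2 higher in OPCs than in astrocytes in all mice, and 5 were lower and 3 higher than in oligodendrocytes. Cp, the ferroxidase ceruloplasmin, was at 115 ± 7.52 CPM in OPCs and at most 6.40 CPM in the other types compared.

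**Figure D2:**
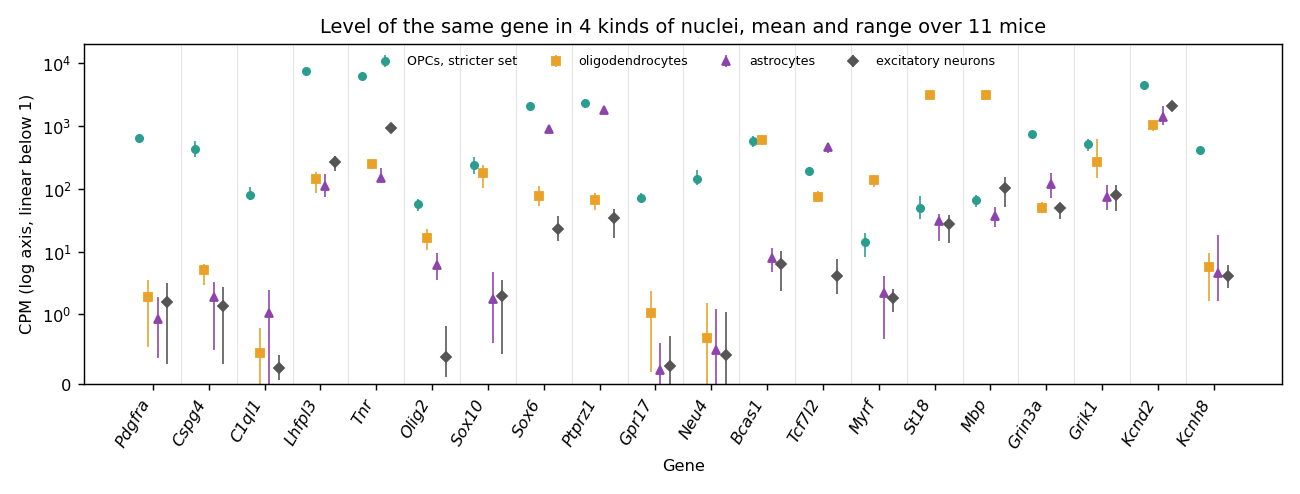
Levels of 20 genes (x axis) in CPM (y axis, log scale, linear below 1) in stricter-set OPCs, oligodendrocytes, astrocytes and excitatory neurons, as the mean (point) and range (line) over 11 mice. Pdgfra (a rule gene), Cspg4, Lhfpl3 and Neu4 are highest in OPCs, Sox10 and Bcas1 are shared with oligodendrocytes, and Mbp and St18 are high in oligodendrocytes.

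Within the stricter set, 334 of 2595 nuclei had a UMI in at least 2 of Gpr17, Bmp4, Enpp6 and Neu4 and were taken as committed, without thinning. Of the 18 other onset genes, 10 were higher in committed nuclei in at least 9 of 11 mice, 1 was lower in at least 9 and 7 were neither. This describes nuclei chosen partly by depth. No share over all genes was set beside these counts, so how unusual they are cannot be read. Bcas1 was at 1102 CPM in committed nuclei and 469 CPM in the rest, and higher in 11 of 11 mice. Fyn, a kinase of myelin initiation, was at 923 and 422 CPM, and higher in 10 of 11. St18 was at 153 and 33.2 CPM and the long non-coding RNA 9630013A20Rik at 42.2 and 10.2 CPM, each higher in 9 of 11. Rras2, at 29.6 and 30.9 CPM, and Cnksr3, at 45.0 and 42.6 CPM, were higher in 5 of 11, and Tmem163 was lower in 10 of 11. The precursor genes did not move one way. Of the 7 rule markers, which chose the nuclei, 3 were lower in at least 9 mice (Pdgfra at 552 against 652 CPM, Shc4 and Matn4) and 1 was higher (Vcan at 1145 against 1084 CPM). Of 14 OPC genes outside the rule, 5 were lower in at least 9 mice, among them Lhfpl3 at 6539.7 against 7518 CPM, and 4 were higher, among them Sox6 at 2361 against 2038 CPM and Tnr at 7463 against 5915 CPM.

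The share of OPCs among nuclei was compared next. No comparison passed its test, and only that of all carriers could have done so after adjustment. It was 3.77%, 3.75%, 2.76% and 2.83% in mice without the transgene, 3.36%, 3.61% and 3.51% in the P301S mice, 3.94% and 3.33% in the knockout mice and 3.06% and 3.34% in the active IKKβ mice. The non-transgenic mice spanned the P301S mice, with the 2 of the floxed line above and the 2 of the active line below. The mean was 3.28% ± 0.556 (SD, n = 4) in non-transgenic and 3.49% ± 0.126 (n = 3) in P301S mice, and the exact permutation test, which was two-sided, gave p = 0.514 (adjusted over 4 comparisons, 0.686). Against P301S mice, the knockout mean was 3.64% ± 0.436 (exact permutation p = 0.7) and the active IKKβ mean 3.20% ± 0.197 (exact permutation p = 0.2). Both active IKKβ mice lay below the 3 P301S mice. They did so in the stricter set too, at 2.05% and 2.07% against 2.35% to 2.62%, a difference of −0.455 percentage points (exact permutation p = 0.1), and it was −0.502 without nuclei holding another type's markers. With 4 of 7 markers alone, with Pdgfra required or with high doublet scores left out, these 2 groups overlapped. For 3 mice against 2 the smallest p this test allows is 0.1, so no difference between these groups could pass 0.05. For P301S against non-transgenic the smallest exact permutation p is 0.0286, which the adjustment keeps above 0.05. The sign of the knockout difference turned with the choice of nuclei: it was 0.143 percentage points by the rule and −0.380 in the stricter set. It was −0.174 with 4 of 7 markers alone, and −0.370 with only the nuclei holding another type's markers left out.

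For the committed share each nucleus was thinned to 2000 UMIs, and 3747 of the 3824 nuclei were deep enough. Non-transgenic mice had 2.85%, 3.17%, 3.59% and 5.95%, P301S mice 4.36%, 2.09% and 3.20%, knockout mice 5.24% and 5.13%, and active IKKβ mice 4.31% and 3.29%. Both knockout mice lay above the 3 P301S mice at this depth. In the stricter set knockout replicate 2, at 4.17%, was below P301S replicate 1, at 4.71%, and thinned to 1000 UMIs knockout replicate 1, at 0.969%, was below all P301S mice. The means were 5.18% ± 0.0769 (n = 2) and 3.22% ± 1.13 (n = 3), with an exact permutation p = 0.2 (adjusted 0.8), and their difference was 0.759 percentage points thinned to 1000 UMIs and 6.70 without thinning. The active IKKβ difference was 0.580 at 2000 UMIs, 1.39 at 1000 UMIs, where 2.42% and 2.67% lay above 1.05% to 1.36% in P301S mice, and 4.42 without thinning, the last 2 with an exact permutation p = 0.1. Without thinning the means were higher, and the thinned share was 0 of 11300 excitatory neurons, 0 of 6191 astrocytes and 0.0851% of oligodendrocytes, at median depths of 13845.5, 4480 and 2798 UMIs.

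Nuclei with a UMI in at least 2 of 8 mitosis genes (Mki67, Top2a, Cenpf, Cenpe, Kif11, Knl1, Anln and Aspm) were rare. Thinned, they were 0.285%, 0.264%, 0% and 0.743% of OPCs without the transgene, 1.63%, 0.930% and 1.07% in P301S mice, 0.499% and 0.427% in knockout mice and 1.23% and 0.548% in active IKKβ mice. At this depth the P301S mice lay above every non-transgenic mouse and both knockout mice. Thinned to 1000 UMIs they did not: P301S mice had 0.262% to 0.682%, non-transgenic replicate 4 had 0.733% and knockout replicate 2 had 0.820%, and the P301S difference was 0.173 percentage points. Without thinning, P301S replicate 3, at 1.05%, was below both knockout mice. The means were 1.21% ± 0.374 (n = 3) in P301S and 0.323% ± 0.309 (n = 4) in non-transgenic ones, with an exact permutation p = 0.0571 (adjusted 0.114), and 0.463% ± 0.0505 (n = 2) in knockout mice, with an exact permutation p = 0.1 (adjusted 0.133). None of the 4 comparisons passed 0.05 after adjustment, and only that of all carriers could have. The smallest exact permutation p is 0.1 for 3 mice against 2. For P301S against non-transgenic it is 0.0286, which the adjustment keeps above 0.05. In the stricter set the P301S mice had 2.35%, 1.31% and 1.42%, non-transgenic mice 0% to 0.690% and knockout mice 0.386% and 0%, and the P301S difference was 1.43 percentage points (exact permutation p = 0.0286, the smallest it allows, adjusted 0.114). Carriers differed from non-transgenic mice by 0.582 percentage points thinned to 2000 UMIs (exact permutation p = 0.0515, adjusted 0.114). The difference was 0.125 thinned to 1000 UMIs (exact permutation p = 0.461) and 0.778 in the stricter set (exact permutation p = 0.152). Without thinning it was 1.04 (exact permutation p = 0.00606, adjusted 0.0242). The shares of the rule, thinned to 2000 UMIs, rest on 27 of 3747 nuclei, and the same count of genes was met by 0.634% of oligodendrocytes, which do not divide, at a median of 2798 UMIs, against 0.0323% of astrocytes and 0.00885% of excitatory neurons. The non-transgenic mean was below the oligodendrocyte share and above those of astrocytes and excitatory neurons, and which of these gives the background for OPCs was not tested. Which of the 8 genes made up the oligodendrocyte share was not examined, nor whether each marks only division in that type.

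**Figure D3:**
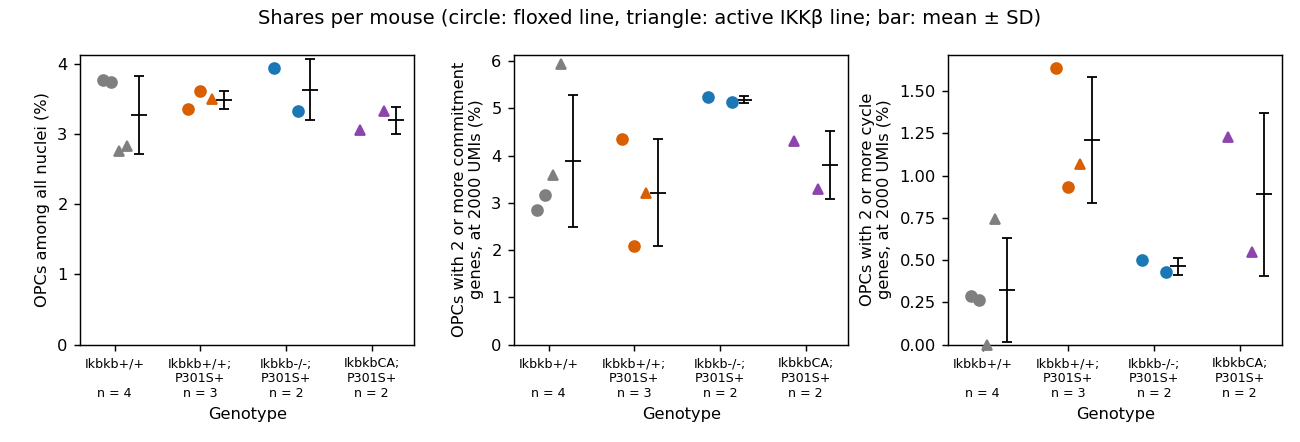
Percent of nuclei that were OPCs, and percent of OPCs with committed genes and with mitosis genes (both thinned to 2000 UMIs), for each mouse by genotype. Circles are mice of the floxed Ikbkb line, triangles mice of the active IKKβ line, and bars the mean ± SD. Both active IKKβ mice lie below the 3 P301S mice in the OPC share, other genotypes overlap there, and the P301S mice lie above the non-transgenic mice in the share with mitosis genes.

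The genes tied to the alleles were looked at first, on the sums of all 3824 nuclei. From here on, CPM compared between mice are also scaled by TMM factors unless they are given beside counts. Ikbkb (chr8:22659212-22706589 of GRCm38) was at 50.6, 46.7, 53.9 and 50.9 CPM without the transgene, 46.3, 40.7 and 62.1 CPM in P301S mice, 53.7 and 42.6 CPM in knockout mice and 47.8 and 60.5 CPM in active IKKβ mice. All groups overlapped. The log2 fold change of the knockout mice against P301S mice was −0.04 ± 0.18 (SE) and that of the active IKKβ mice 0.13 ± 0.18, and reads from a deleted exon and from the rest of the gene cannot be told apart in these counts. Mapt, the mouse tau gene, was at 418 ± 51.5 CPM (SD, n = 4) in non-transgenic and 452 ± 14.7 CPM (n = 3) in P301S mice, and Prnp had 1 UMI over all OPC nuclei. How reads were assigned at the Prnp locus was not tested, so this count cannot be read as a silent gene or promoter.

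The P301S comparison called 1 gene of 12005 tested, 0.00833%, and 308 had an unadjusted p under 0.05 in edgeR's quasi-likelihood test. The gene was Gm43049, a long intergenic non-coding RNA of unknown function on chromosome 3 (chr3:140692038-140760704, minus strand). Its counts were 0, 0, 0 and 0 in non-transgenic OPCs, 21, 26 and 21 in P301S, 19 and 14 in knockout and 14 and 21 in active IKKβ OPCs. Every mouse with the transgene had it and no mouse without it did. Set against a floor of 3 counts over the non-transgenic group it was at least 26.5-fold higher in P301S mice and at least 22.0-fold higher over the 7 carriers. The adjusted p was 0.00138 for P301S mice and 0.00156 for all carriers, where it was again the only call of 12005 (0.00833%, with 464 at an unadjusted p under 0.05). DESeq2 made the same call in both.

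Gm43049 was not particular to OPCs. Over the 7 carriers against the 4 non-transgenic mice it had 138 and 0 counts in oligodendrocytes, 43 and 0 in astrocytes, 1047 and 2 in excitatory neurons and 5228 and 13 in all nuclei. In the stricter OPC set it had 59 and 0 counts, too few to enter the test, and with it gone no gene (0 of 9947) was called there in either comparison, by edgeR. There 371 and 510 genes reached an unadjusted p under 0.05. Gm32754 and 4930590L14Rik, named after their values were seen, lie 144294 and 191172 bases from it. They had 14 and 11 counts in carrier OPCs and 0 in non-transgenic OPCs. They had 0 and 4 counts in the stricter set, which holds 48.8% of the UMIs. Farther away, 2 protein-coding genes with many reads, also named after their values were seen, did not share this. Unc5c, 704512 bases away, was at 956 CPM in carriers and 1124 CPM in non-transgenic OPCs. Rap1gds1, 1616837 bases away, was at 174 and 161 CPM.

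Other transcripts followed the breeding line, and were also named after their values were seen. Gt(ROSA)26Sor, the transcript of the Rosa26 locus (chr6:113067428-113077333, annotated as antisense), had 12 to 21 counts in OPCs of each of the 6 floxed-line mice and 0 to 4 in each of the 5 active-line mice, where the active allele sits in that locus. Whether counting used the strand is not stated, so its reads and those of an overlapping gene cannot be told apart. Gm16867 (chr14:69363504-69503362) had 24 to 82 counts in OPCs of each floxed-line mouse and 0, 0, 22, 0 and 0 in the active-line mice, and Loxl2 beside it (chr14:69609068-69695834) had 14 to 41 and 2, 0, 14, 1 and 0. The active-line mouse with reads was P301S replicate 3. Their log2 fold changes in the active IKKβ comparison were −8.14 ± 2.12 and −5.72 ± 1.26, with adjusted p of 1.0 in edgeR. When genes of low count were not filtered, the edgeR adjusted p was 1.36e-19 for Gm16867 and 8.45e-14 for Loxl2. On the same counts the SEs were then 0.806 and 0.665. Each SE is derived from the F statistic that gives p, so it restates p and is no separate check. Why the fits differ was not tested, and those p are not read as findings. Both genes moved with line within the non-transgenic mice as well.

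**Figure D4:**
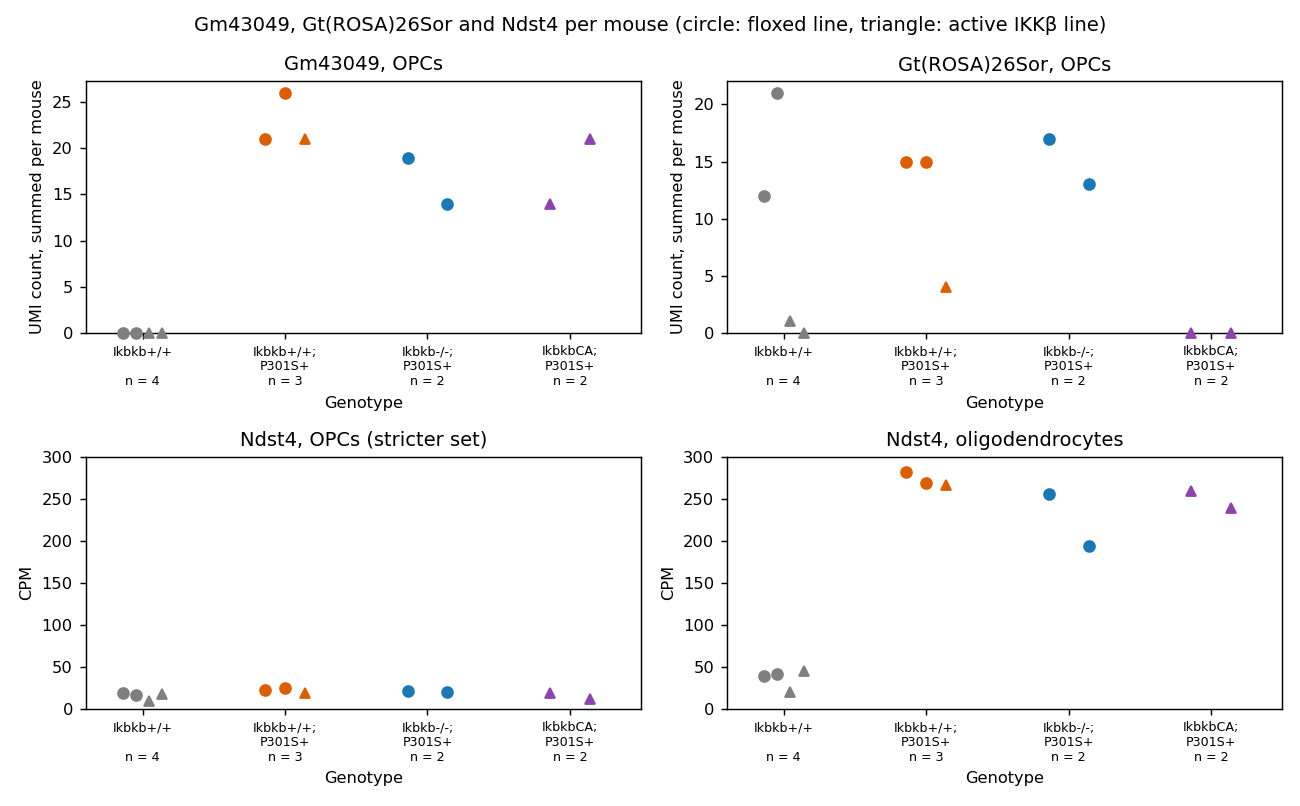
Counts of Gm43049 and Gt(ROSA)26Sor in OPCs of each mouse, and levels of Ndst4 in CPM in stricter-set OPCs and in oligodendrocytes. Gm43049 is at 0 in all 4 non-transgenic mice and at 14 to 26 in the 7 carriers, Gt(ROSA)26Sor follows the breeding line, and Ndst4 separates carriers from non-transgenic mice in oligodendrocytes and overlaps in OPCs.

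The gene groups were then compared between P301S and non-transgenic OPCs. None (0) of the members of any list was called in either set by edgeR with its filter on low counts. Of the 15 OPC genes outside the rule, 4 had estimates above 0 and the median log2 fold change was −0.04, beside 5870 of 12005 and a median that rounds to 0.00 for all genes tested. Sox10 was at 219, 240, 255 and 295 CPM in non-transgenic stricter-set OPCs and at 179, 238 and 206 CPM in P301S ones, a log2 fold change of −0.27 ± 0.12, and −0.30 by the rule, or −0.15 without P301S replicate 1. These ranges overlapped. Pdgfra had −0.04 ± 0.09.

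Cell cycle genes were above 0 in 11 of 17 with a median of 0.23, and in 9 of 12 with the same median in the stricter set. Over all carriers they were above 0 in 9 of 17 by the rule, with a median of 0.07. Top2a, the topoisomerase of dividing cells, had 0.95 ± 0.60 and Ccnd1, the cyclin of G1, 0.22 ± 0.20. Interferon and MHC genes were above 0 in 14 of 16 with a median of 0.17, and in 10 of 16 with 0.13 in the stricter set, and in neither set did any of them (0 of 16) have an unadjusted p under 0.05 in edgeR. Disease-associated glial genes were above 0 in 7 of 10, with a median of 0.09. Among them the complement gene C4b was at 2.63, 3.79, 2.38 and 9.64 CPM in non-transgenic stricter-set OPCs, 9.68, 10.9 and 15.1 CPM in P301S, 38.0 and 5.69 CPM in knockout and 22.1 and 13.3 CPM in active IKKβ ones. Its log2 fold change over all carriers was 2.01 ± 0.44 with an adjusted p of 0.518, and 0.54 ± 0.50 over all 3824 nuclei, where leaving out 1 mouse in turn gave −0.15 to 1.22. The carriers lay above the non-transgenic mice except for knockout replicate 2.

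Differentiation onset genes were above 0 in 4 of 22 by the rule, with a median of −0.09, and in 9 of 22 with −0.02 in the stricter set. Cholesterol and lipid genes had medians of 0.02 and −0.06, NF-κB genes 0.10 and 0.05, and receptors for microglial signals −0.04 in both. Progenitor transcription factors, growth factor receptors, differentiation brakes, matrix and adhesion genes, neurotransmitter receptors and ion channels had medians between −0.07 and 0.01, and stress genes 0.03 and 0.05. Of the genes of lowest p in these lists, Dscaml1, an adhesion gene, had −0.21 ± 0.10 by the rule and −0.20 ± 0.10 in the stricter set, and the NF-κB list gene Alpk1 0.52 ± 0.29 and 0.85 ± 0.33. A single mouse set the estimates of 2 other genes. Mertk, a phagocytic receptor that is high in astrocytes, was at 553 CPM in P301S replicate 1 and 120 to 289 CPM in the other 10 mice in the stricter set. Fkbp5, a glucocorticoid-induced chaperone, was at 171 CPM in the same mouse and 28.8 to 66.1 CPM in the others. Over all 3824 nuclei the P301S estimate was 0.72 ± 0.32 for Mertk and 0.85 ± 0.29 for Fkbp5, and without that mouse −0.01 and 0.25. Without a filter on low counts both were called, with edgeR adjusted p of 0.000223 and 9.61e-05. Their SEs there were only 0.135 and 0.155. The part of astrocyte RNA in that mouse was not tested, and its 8 astrocyte markers summed to 535 CPM against 417 to 531 CPM in the others.

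Aldh1a1, a retinaldehyde dehydrogenase, was the protein-coding gene nearest to a call over all carriers and was named after its values were seen. In the stricter set non-transgenic mice had 20.2, 22.0, 15.5 and 31.7 CPM, P301S mice 54.9, 46.9 and 38.1 CPM, knockout mice 34.0 and 38.4 CPM and active IKKβ mice 66.4 and 51.4 CPM. No carrier overlapped the non-transgenic mice. The log2 fold change was 1.06 ± 0.19 with an edgeR adjusted p of 0.0600, and with line as a covariate 1.07 ± 0.188 with an adjusted p of 0.0359. Over all 3824 nuclei it was 0.58 ± 0.19. Spry2, which restrains growth factor signalling, was lower in carriers at −0.56 ± 0.14, and −0.62 ± 0.20 in the stricter set, without passing the test.

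In the knockout comparison edgeR called 0 genes, 0% of 12005, and DESeq2 also called 0. An unadjusted p under 0.05 was reached by 728. In the stricter set 0 of 9947 were called and 653 had such a p. With breeding line as a covariate the stricter set called 1 gene, Cmss1, at 1.13 ± 0.199 with an edgeR adjusted p of 0.0364. Cmss1, named after its values were seen, was at 157, 211 and 237 CPM in P301S and 342 and 451 CPM in knockout mice, beside 181 to 370 CPM in non-transgenic mice. Gm42418, which overlaps ribosomal RNA sequence and can reflect RNA quality, moved with it: it was at 968, 1003 and 1145 CPM in P301S and 1874 and 2064 CPM in knockout mice, 0.92 ± 0.18 with an edgeR adjusted p of 0.355 in the stricter set. Without a filter on low counts Cmss1, Gm42418 and Gm47283 were all called by the rule. That fit gave smaller SEs for Gm16867 and Loxl2 above on the same counts. The part of RNA quality was not tested. OPC identity genes had a median of −0.17 by the rule, with 5 of 15 above 0, and of 0.03 with 9 of 15 in the stricter set, so the sign differed between the sets. Cspg4 was at 357, 341 and 424 CPM in P301S and 450 and 572 CPM in knockout mice in the stricter set, a log2 fold change of 0.44 ± 0.16, and Sox10 at 0.44 ± 0.14, both with an adjusted p of 0.686. Both knockout mice lay above the P301S mice for each gene.

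Cell cycle genes went the other way from the P301S comparison, though the 3 P301S mice enter both and the values are not independent. Of 17 genes 3 were above 0 with a median of −0.23, and of 12 in the stricter set 2 with −0.39. Ccnd1, knockout against P301S, had −0.53 ± 0.24 by the rule, and −0.28 without P301S replicate 3. Top2a had −1.24 ± 0.73. Differentiation onset genes had a median of −0.02 by the rule and 0.11 in the stricter set, with 15 of 22 above 0.

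Interferon and MHC genes were above 0 in 8 of 16 by the rule and 14 of 16 in the stricter set, with medians of −0.02 and 0.23. Stat2, which carries the type I interferon signal, was at 16.1, 18.0 and 19.4 CPM in P301S stricter-set OPCs and 43.5 and 34.1 CPM in knockout ones, with 17.5 to 27.4 CPM in non-transgenic mice. Both knockout mice were above all non-transgenic and P301S mice. The log2 fold change was 1.14 ± 0.28 with an adjusted p of 0.574, and 0.58 ± 0.21 by the rule. Nlrc5, which drives MHC class I genes, had 1.87 ± 0.71, but in the stricter set its 14.2 CPM came from knockout replicate 1 and replicate 2 had 0, and by the rule it was 0.35 without replicate 1. NF-κB genes had a median of 0.02 in both sets, and cholesterol and lipid genes −0.06 and 0.06. Ion channels had 0.12 by the rule and 0.02 in the stricter set, and disease-associated glial genes −0.26 and −0.02. Progenitor transcription factors, growth factor receptors, brakes, matrix and adhesion genes, neurotransmitter receptors, receptors for microglial signals and stress genes lay between −0.11 and 0.04 in both sets. Among members of these lists that the naming rule took in any comparison, the potassium channel Kcnj16 had −0.97 ± 0.35 by the rule and −0.78 ± 0.33 in the stricter set, the growth factor receptor Fgfr2 −0.30 ± 0.13 and −0.31 ± 0.17, the integrin Itgav −0.42 ± 0.19 and −0.32 ± 0.16, the NMDA receptor gene Grin2a 0.32 ± 0.20 and 0.61 ± 0.18, and Dscaml1 0.15 ± 0.11 and 0.38 ± 0.12, none of them called.

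For active IKKβ mice edgeR called 0 genes, 0% of 12005, and DESeq2 called 0 as well. An unadjusted p under 0.05 was reached by 401 genes, and in the stricter set by 475, with 0 of 9947 called. Differentiation onset genes were above 0 in 15 of 22, with a median of 0.16, and 3 of them had an unadjusted p under 0.05 upward and 1 downward. In the stricter set 14 of 22 were above 0, with a median of 0.10, and 4 had such a p upward and 0 downward. Those 4 were St18 at 0.69 ± 0.26, Sirt2 at 0.39 ± 0.16, Fyn at 0.31 ± 0.14 and Itpr2 at 0.22 ± 0.10, named after their values were seen, with 0.60, 0.36, 0.30 and 0.16 by the rule and an edgeR adjusted p of 0.978 each in the stricter set. Bmp4 had 1.19 ± 0.42 by the rule and 0.39 ± 0.49 in the stricter set, and Parvb 0.90 ± 0.28 and 0.49 ± 0.40. Leaving out 1 mouse in turn gave 0.87 to 1.85 for Bmp4 by the rule, the highest without P301S replicate 3. Rras2, in the other direction, had −0.55 ± 0.17 and −0.39 ± 0.25.

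Interferon and MHC genes split, with 8 of 16 above 0 and a median of −0.07 by the rule, and 10 of 16 with 0.15 in the stricter set. H2-K1, a classical MHC class I gene, was at 15.1, 14.8 and 23.7 CPM in P301S and 4.81 and 5.80 CPM in active IKKβ stricter-set OPCs, a log2 fold change of −1.75 ± 0.48 with an edgeR adjusted p of 0.966. The non-transgenic mice spanned 2.75 to 16.7 CPM, with the 2 of the active line lowest, while the P301S mouse of that line was the highest of all, so the part of line was not settled by these values. Cd81, a tetraspanin, had −0.73 ± 0.31, with −1.13 without active IKKβ replicate 1 and −0.40 without replicate 2, and Hmgcs1, of cholesterol synthesis, −0.66 ± 0.21 by the rule and −0.04 ± 0.27 in the stricter set. NF-κB genes had medians of 0.13 and 0.04, and receptors for microglial signals 0.05 and 0.07. Among the genes of lowest p in their lists, the calcium channel Cacna1g had 0.49 ± 0.22 by the rule and 0.71 ± 0.28 in the stricter set, the adhesion gene Dscaml1 0.30 ± 0.11 and 0.34 ± 0.12, the interferon receptor Ifnar1 0.46 ± 0.19 and 0.53 ± 0.24, and the kainate receptor Grik4 0.28 ± 0.14 and 0.34 ± 0.11, and none was called. Stress and immediate early genes had −0.01 over 25 genes by the rule and −0.46 over 14 in the stricter set, where 5 were above 0 and 1 had an unadjusted p under 0.05, downward. Cell cycle genes had 0.07 and −0.13, OPC identity genes −0.02 and 0.08, and progenitor transcription factors, growth factor receptors, brakes, matrix and adhesion genes, neurotransmitter receptors, ion channels, cholesterol and lipid genes and disease-associated glial genes lay between −0.08 and 0.03. Of the markers of other cells, all 6 microglial markers tested by the rule were above 0, with a median of 0.34 and 0 called by edgeR, none of them at an unadjusted p under 0.05 (0 of 6). Summed, the 8 microglial markers were at 54.2 and 62.3 CPM in active IKKβ mice and at 34.8 to 53.3 CPM in P301S mice, and in the stricter set at 45.4 and 34.1 against 35.4 to 38.5 CPM. Their part in the values above was not tested. Astrocyte markers had a median of 0.16 by the rule and 0.12 in the stricter set, and inhibitory neuron markers 0.13 and −0.04.

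**Figure D5:**
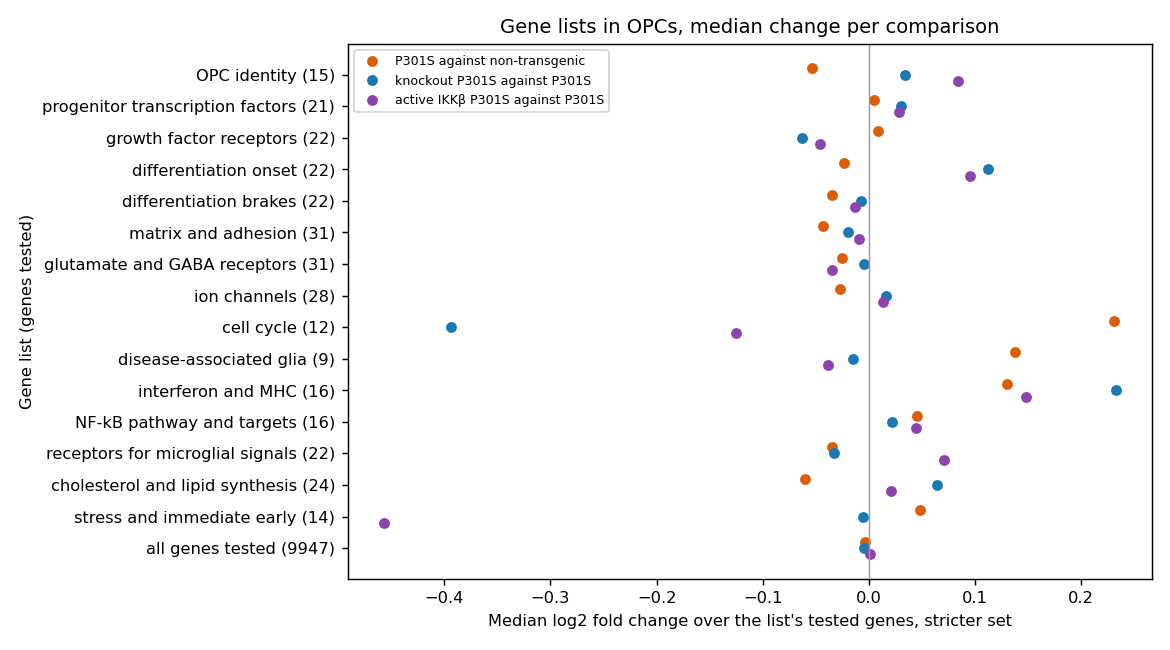
Median log2 fold change of each gene list in stricter-set OPCs (x axis) for the P301S, knockout and active IKKβ comparisons, with all 9947 genes tested as the last line. Most lists lie near the median of all genes, and cell cycle genes are at 0.23 in the P301S and −0.39 in the knockout comparison, which share the P301S mice. Stress genes are at −0.46 in the active IKKβ comparison.

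Whether OPCs answered differently from other glia was tested on the difference between types within each mouse. Between OPCs and astrocytes 0 of 11424 genes were called in any of the 4 comparisons by limma, 0%, and 442 to 585 reached an unadjusted p under 0.05. Between OPCs and oligodendrocytes 1 of 11765 was called over all carriers, 0.0085%, and 1 of 9805 in the stricter set, 0.0102%, both for P301S mice and for all carriers. That gene was Ndst4, which makes an enzyme that sulfates heparan sulfate chains. In oligodendrocytes it was at 39.3, 41.7, 19.3 and 44.2 CPM in non-transgenic mice and 194 to 282 CPM in the 7 carriers, with no overlap. In stricter-set OPCs of the same mice it was at 18.4, 16.7, 9.54 and 17.9 CPM in non-transgenic mice and 11.6 to 25.0 CPM in carriers, which overlapped. The log2 fold change over carriers was 2.74 in oligodendrocytes (edgeR adjusted p 8.13e-07, where 2 of 13621 genes were called, 0.0147%) and 0.25 ± 0.23 in stricter-set OPCs. In OPCs of the rule the estimate had the other sign, −0.71 ± 0.32. Without a filter on low counts Ndst4 was called lower there, at −0.71 with an edgeR adjusted p of 0.00134. On the same counts the SE, derived from the same F statistic as p, was then 0.143. Why the fits differ was not tested, and that call is not read as a finding. The difference of OPC minus oligodendrocyte response was −2.57 in log2 with a limma adjusted p of 5.71e-05.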

How the data were processed

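Nuclei from the cortex of 11 mice were profiled with 10x Genomics 3′ chemistry, 1 library per mouse. The authors aligned reads to a mouse pre-mRNA reference (mm10) with Cell Ranger 3.1.0, per the labels and the submitters' processing notes, and deposited raw UMI counts per gene and nucleus, not normalized, for 31053 genes. Of these genes 30934 were matched by identifier to GENCODE M21 for position. The authors' doublet removal was not repeated: Scrublet scores (Scanpy 1.11.5, expected rate 0.8% per 1000 barcodes) were used only to describe nuclei and in an alternative.

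The counts of OPC nuclei were summed per mouse and tested with edgeR 4.0.16 (quasi-likelihood test, TMM, filterByExpr, all 11 mice in 1 fit) in R 4.3.3. Calls needed a p under 0.05 after Benjamini-Hochberg adjustment over all tested genes and a log2 fold change beyond 0.1. The SE of an edgeR log2 fold change is its absolute value divided by the square root of the F statistic behind p. The 4 comparisons were P301S against non-transgenic, knockout and active IKKβ each against P301S, and all carriers against non-transgenic. Differences between cell types within a mouse were tested with limma 3.58.1 on log2 CPM with a prior count of 2, and shares with exact permutation tests over mice. Astrocytes and oligodendrocytes were chosen by markers in the same way, with at most 1 rule marker, and excitatory neurons by 3 or more UMIs of Slc17a7. DESeq2 1.42.0, other marker limits, line as a covariate and leaving out each mouse were the alternatives. The scripts were tested on simulated data.

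OPC nuclei summed to 1463801 to 2669313 UMIs per mouse, and the biological coefficient of variation was 13.8%, or 10.1% in the stricter set. The members and gene lists were chosen with earlier results of these data known. The rule for names took, in each comparison, called genes, the 2 tested genes of lowest p in each list, and a set of lineage, allele-linked and immune genes; the text prints some of these and not all. Other names are said to be chosen after their values were seen, as were the genes described by level across cell types or in committed nuclei. Same-numbered mice did not deviate together (10 correlations between −0.105 and 0.201, 1 over 0.1), so replicate numbers were not used as pairs.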

Additional observations from a re-analysis of the deposited data

Results flagged for a closer look

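Ndst4 differed between OPCs and oligodendrocytes in its response, by a test of the difference within each mouse (limma). Over all carriers against non-transgenic mice, the OPC minus oligodendrocyte response was −3.27 in log2 by the rule (adjusted p 0.0107) and −2.57 in the stricter set (adjusted p 5.71e-05). For P301S mice alone it was −2.51 in the stricter set (adjusted p 0.000489), and −3.33 by the rule, which missed the limit with an adjusted p of 0.0516. In oligodendrocytes Ndst4 was higher in 7 of 7 carriers than in every non-transgenic mouse. In OPCs of the rule the non-transgenic mice spanned 11.9 to 78.4 CPM and the carriers 17.9 to 41.9 CPM, and excitatory neurons of non-transgenic mice had 32.0 to 164 CPM. The part of neuronal RNA in the rule's OPC values was not tested. Of 32 groups examined for a mouse far from the others, 0 passed the limit. With 2 to 4 mice per genotype this check could hardly mark a mouse. It does not show that none stood apart, and P301S replicate 1 did so for Mertk and Fkbp5 above.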

How the results depend on the processing

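The sign of the OPC share difference depended on which nuclei were counted. Knockout against P301S was −0.174 percentage points with 4 of 7 markers, −0.370 without nuclei holding another type's markers, −0.100 with Pdgfra required, −0.272 with the rule applied to thinned nuclei and −0.380 in the stricter set. Carriers against non-transgenic was −0.0232 without other-type nuclei, −0.0249 in the stricter set and −1.11 as a share of glia, where P301S was −0.443. Thinned to 1000 UMIs the cycling-gene difference was 0.0384 for knockout and 0.173 for P301S (0.888 at 2000), and for carriers 1.04 without thinning, where the exact permutation test passed (adjusted p 0.0242). Without a count filter the calls were 25, 34, 23 and 32 for P301S, knockout, active IKKβ and carriers. That setting gave smaller SEs on the same counts for Gm16867, Loxl2 and Ndst4, and its calls were not read as findings. The stricter set called 0 for P301S and 0 for carriers, and with line as a covariate 0 for P301S, 1 for knockout (Cmss1) and 1 for carriers (Aldh1a1). OPC minus oligodendrocyte calls for P301S became 1 with line as a covariate and 1 in the stricter set. The cause was not tested.

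Leaving out each mouse, calls stayed at 1, 0, 0 and 1. The OPC share difference ranged over 0.0433 to 0.379 for P301S, −0.165 to 0.451 for knockout, −0.433 to −0.154 for active IKKβ and 0.000383 to 0.336 for carriers. The committed share ranged over −1.24 to 0.0173, 1.40 to 2.54, 0.0178 to 1.15 and −0.289 to 0.744, and the cycling-gene share over 0.675 to 1.03, −0.888 to −0.535, −0.663 to 0.0202 and 0.461 to 0.722. A replicate block by number gave 1, 0, 0 and 1 calls and changed no call.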
